A study of Mus musculus with 6 samples.

Results

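Polycomb repressive complex 2 (PRC2) places methyl groups on lysine 27 of histone H3, the mark that keeps developmental genes silent in mature cells. Its core joins a methyltransferase, Ezh1 or Ezh2, to Eed, Suz12 and a histone chaperone such as Rbbp4. Ezh2 is known as the form of dividing cells and Ezh1 as the form that prevails in cells that have stopped dividing, neurons among them. Ash1l, the gene altered in these mice, encodes a methyltransferase for lysine 36 of histone H3, and methylation of lysine 36 is known to hinder PRC2 on the same histone tail.

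The 10 genes described here are Ezh1, Ezh2, Eed, Suz12, Rbbp4, Mtf2, Phf1, Phf19, Jarid2 and Kdm2b. They were taken by name from a list of PRC2 genes, and all 10 were present among the 34745 genes of the deposited table. Of the 10, 9 encode PRC2 subunits. Kdm2b, a demethylase that binds unmethylated CpG sites, belongs to a variant of Polycomb repressive complex 1 (PRC1) and not to PRC2 itself, and it is described last.

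RNA came from the dorsal striatum of C57BL/6 mice aged 1 year, in 3 libraries from mice heterozygous for Ash1l (Ash1l het) and 3 from wild type (WT) mice. The sources used here give neither the position and kind of the Ash1l allele nor any pooling of animals. Nothing in the labels ties each library to an animal of its own, so a p-value here covers the spread among these libraries. The libraries held 14421259 to 18798694 counts in Ash1l het and 12080663 to 17381781 in WT. The protocol names male mice, but Xist, the RNA of the inactive X chromosome of females, stood between 1956 and 2957 CPM (counts scaled to library size) in all 6 libraries, and 4 genes of the Y chromosome (Eif2s3y, Kdm5d, Uty and Ddx3y) had 1 count between them, in WT replicate 1. The sex in the protocol therefore goes against the counts for both groups alike. Markers of spiny projection neurons, the main neurons of the striatum, summed to 7356 to 9074 CPM in Ash1l het, against 7809 to 8917 CPM in WT, with 2 of 10 higher and 8 lower by sign, none passing. Ash1l itself stood at 281, 198 and 253 CPM in Ash1l het, against 308, 295 and 293 CPM in WT, a log2 fold change of -0.29 (SE 0.13), with an edgeR quasi-likelihood adjusted p of 0.858.

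All 10 genes start in sequence dense in CpG. In the RefSeq windows of GRCm38.p6, which run from 250 bases before to 50 bases after each gene's start, the 10 genes held 17 (Eed) to 41 (Suz12) CpG sites, where the median of 27025 genes was 7. At least 15 sites were present in all 10 genes and in 35.2% of all windows. Where a gene had several windows only the most upstream was read, so other starts of Mtf2, Jarid2 and Kdm2b were not searched. E2F factors, the regulators of genes used for cell division, bind the words TTTGGCGC, TTTCGCGC, TTTGCCGC and TTTCCCGC. On either strand, 1 of these words was present in the windows of Ezh2, Suz12 and Phf19, and in 2.33% of all windows. The 3 stretches are shown because they set these genes apart from the other 7, in which no such word is in the window; capitals mark the E2F word, read 5′ to 3′ along the gene's strand. A match is a stretch of letters and does not show binding.
Ezh2, chr6:47595011-47595130, minus strand, from base -100 to base 20 of the start: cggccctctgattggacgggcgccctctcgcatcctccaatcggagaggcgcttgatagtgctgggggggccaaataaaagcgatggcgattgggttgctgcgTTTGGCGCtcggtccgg
Suz12, chr11:79992856-79992955, plus strand, from base -250 to base -151: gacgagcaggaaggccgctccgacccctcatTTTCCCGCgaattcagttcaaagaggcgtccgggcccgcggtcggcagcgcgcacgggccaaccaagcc
Phf19, chr2:34914127-34914226, minus strand, from base -250 to base -151: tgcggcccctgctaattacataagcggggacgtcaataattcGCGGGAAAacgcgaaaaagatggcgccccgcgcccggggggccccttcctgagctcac
The word begins at base 4 in Ezh2, base -219 in Suz12 and base -208 in Phf19, where it lies on the other strand. The CCAAT box (CCAAT or its complement ATTGG) was found in 5 of the 10 windows and in 38.0% of all windows. Ezh2 held 3 of them, beginning at bases -90, -64 and -11, and none overlaps the E2F word.

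The first question was which PRC2 genes the striatum used at 1 year of age, and at what level. Comparing genes needs a length, and the authors' FPKM (fragments scaled to gene length and library size) rests on a fixed length per gene that is not the length of a single mRNA: 16565 bases for Mtf2 and 2429 for Phf1, against 4060 and 2522 bases for their principal transcripts in GENCODE M21. Levels are therefore given on both scales, and the choice of the second was made after the data were seen. On both scales Ezh1 was the main methyltransferase. Its level was 7.91, 6.92 and 4.47 FPKM in Ash1l het and 5.15, 4.74 and 7.20 FPKM in WT. Ezh2 was at 0.894, 0.972 and 0.981 FPKM in Ash1l het and 0.695, 0.807 and 0.617 FPKM in WT. Ezh2 was thus low in each library of both groups.

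By FPKM the order of the means over 6 libraries was Phf1, Rbbp4, Ezh1, Suz12, Eed, Jarid2, Mtf2, Kdm2b, Ezh2 and Phf19. Per kilobase of the principal transcript it was Rbbp4, Ezh1, Phf1, Mtf2, Jarid2, Suz12, Eed, Kdm2b, Ezh2 and Phf19. Kdm2b, Ezh2 and Phf19 closed the order on both scales. Phf19, a Polycomb-like subunit, was the lowest, at 0.0915 to 0.148 FPKM in Ash1l het and 0.0276 to 0.111 FPKM in WT, and its highest library lay below the lowest Ezh2 library. Most neighbours did not separate: on the transcript scale Rbbp4 was above Ezh1 in 4 of 6 libraries and Ezh1 above Phf1 in 3 of 6. The ranges of neighbours did not overlap between Eed and Kdm2b on the transcript scale, between Mtf2 and Kdm2b on the FPKM scale, and between Ezh2 and Phf19 on both.

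**Figure D1:**
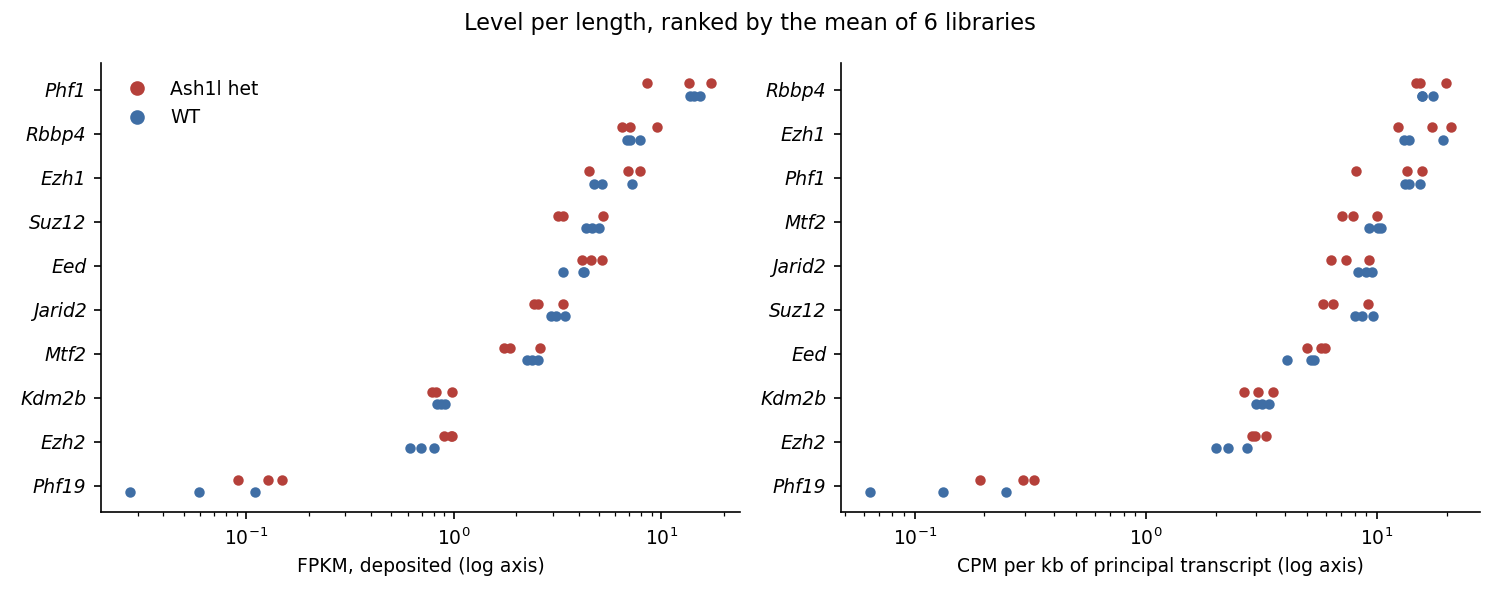
Level per length of the 10 genes in each of the 6 libraries, as deposited FPKM (left) and as CPM per kilobase of the principal transcript (right), both on log axes, with Ash1l het in red and WT in blue. Phf1 leads by FPKM and ranks behind Rbbp4 and Ezh1 per transcript length, and Kdm2b, Ezh2 and Phf19 are the 3 lowest on both.

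The main comparison asked whether any of the 10 genes differed in Ash1l het striatum, tested with the quasi-likelihood test of edgeR across 15267 genes. None of the 10 passed: 0 were higher and 0 lower at an adjusted p under 0.05, where 0.0131% of all tested genes passed. By unadjusted p under 0.05 the count was also 0 of 10, against 5.78% of all tested genes, and DESeq2 called 0 of 10, where it called 0.182% of all genes given an adjusted p. By sign alone 5 genes were higher (Ezh1, Ezh2, Eed, Phf19 and Rbbp4) and 5 lower, with a median log2 fold change of -0.0059, beside 51.4% higher and a median of 0.0063 over all tested genes. Across all alternatives the adjusted p of the 10 genes ran from 0.600 to 1.00. Of the 10 intervals, the widest is that of Phf19, the gene with the fewest counts.

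**Figure D2:**
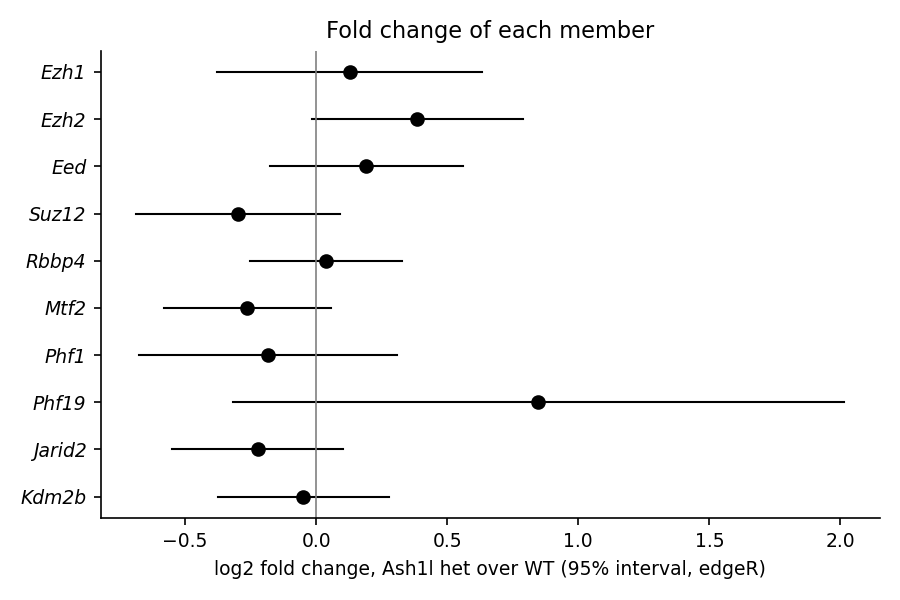
Log2 fold change of each gene, Ash1l het over WT, with its 95% interval from the edgeR fit. Every interval crosses 0, from the narrowest at Rbbp4 to the widest at Phf19.

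Of the methyltransferases, Ezh1 (ENSMUSG00000006920; GRCm38 chromosome 11, 101191115 to 101226463, minus strand) stood at 87.4, 72.5 and 51.5 CPM in Ash1l het, against 57.5, 54.9 and 80.8 CPM in WT. The groups overlapped fully, with the highest and the lowest library both in Ash1l het. The log2 fold change was 0.13 (SE 0.22), and its 95% interval ran from 0.770-fold to 1.55-fold. Without Ash1l het replicate 1 it was -0.06.

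Ezh2 (ENSMUSG00000029687; chromosome 6, 47530139 to 47595341, minus strand) was the single member whose groups did not overlap. It stood at 8.02, 8.27 and 9.18 CPM in Ash1l het, from 118, 127 and 167 counts, and at 6.29, 7.59 and 5.62 CPM in WT, from 76, 127 and 97 counts. Each Ash1l het library was above each WT library, as was the case for 6.18% of all tested genes, so 1 member in 10 is close to that background. Its log2 fold change of 0.39 (SE 0.18) had an edgeR p of 0.0575 unadjusted and 0.858 adjusted, and an interval that ran from 0.989-fold to 1.73-fold. By an exact permutation test, two-sided, p was 0.1, which is the minimum for 3 against 3 libraries. With single libraries left out the log2 fold change ran from 0.29 to 0.51.

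Markers of other cells were set beside the Ezh2 values, because fewer cells of a type and less RNA per cell cannot be told apart in bulk tissue. Endothelial genes (8 of 8 tested, all 8 with a higher mean in Ash1l het by sign, 0 passing) summed to 284, 255 and 331 CPM in Ash1l het, against 205, 246 and 219 CPM in WT. Ash1l het replicate 3 and WT replicate 2 were highest in their groups for both Ezh2 and the endothelial sum. The lowest libraries differed in both groups. They were Ash1l het replicate 1 and WT replicate 3 for Ezh2, and Ash1l het replicate 2 and WT replicate 1 for the sum. The sums did not overlap between the groups. The separation rested on 1 gene, Vwf, the clotting factor of endothelial cells, at 41.7, 43.2 and 58.3 CPM in Ash1l het, against 20.2, 20.3 and 21.1 CPM in WT (edgeR log2 fold change 1.22, SE 0.15, adjusted p = 0.0715). Without Vwf the sums overlapped, at 243, 211 and 273 CPM in Ash1l het, against 185, 226 and 198 CPM in WT, while they stayed apart when any of the other 7 genes was left out, an alternative chosen after seeing the data. None of the 8 was at 0, and among them Pecam1, the junction protein, stood at 31.2, 27.2 and 33.6 CPM in Ash1l het, against 25.0, 25.5 and 21.8 CPM in WT. Blood cell genes, 5 of 5 higher by sign, also separated, at 56.1 to 123 CPM in Ash1l het, against 23.0 to 35.4 CPM in WT, and none was at 0. The part of either in the Ezh2 difference was not tested. Markers of proliferating cells and neuroblasts (13 of 15 tested, 5 higher and 8 lower by sign, none at 0) overlapped, at 125 to 144 CPM in Ash1l het, against 135 to 144 CPM in WT. Among them Mki67, the proliferation antigen, stood at 9.38, 3.78 and 7.86 CPM in Ash1l het, against 5.80, 5.20 and 5.85 CPM in WT.

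**Figure D3:**
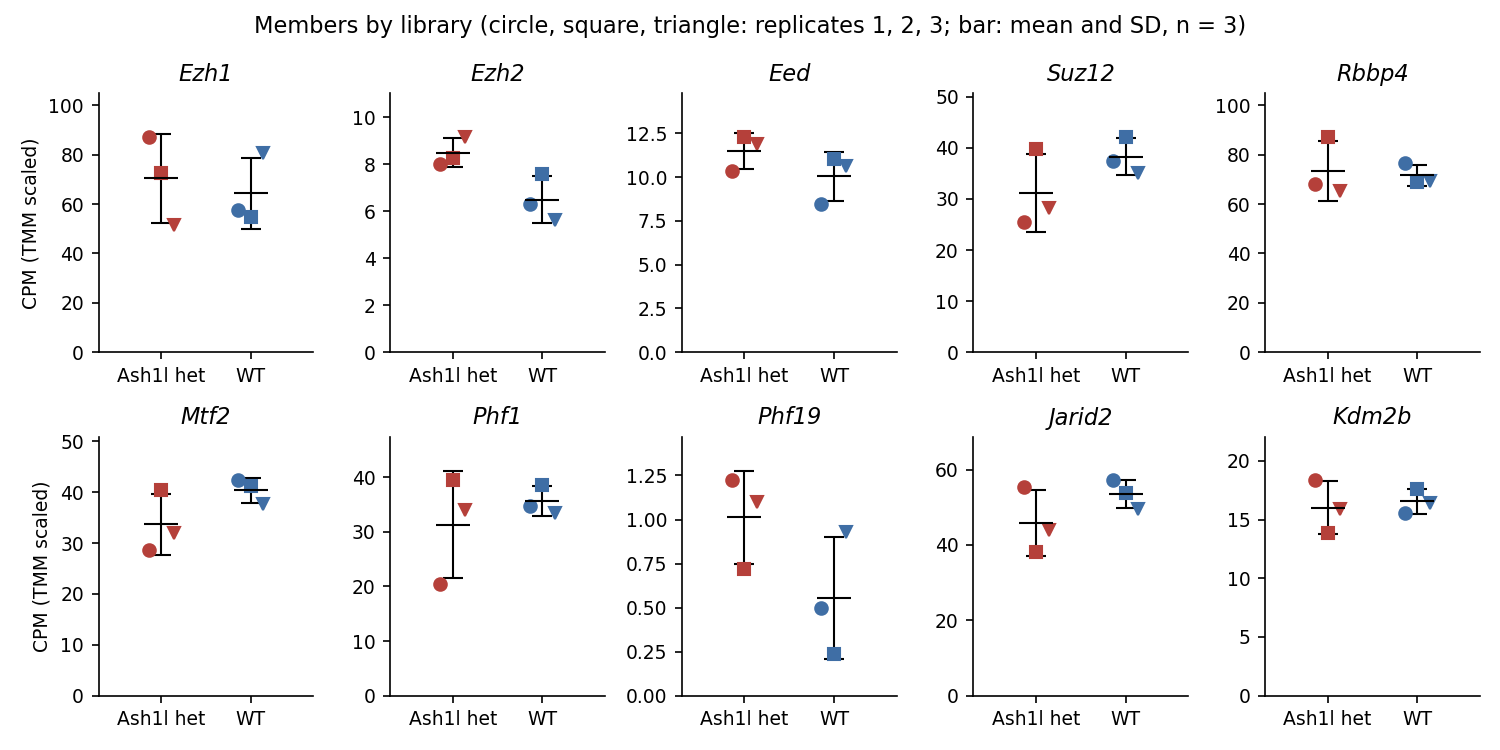
CPM of each of the 10 genes in each library (vertical axis from 0), Ash1l het left of WT, with the mean and SD of 3 libraries. The groups are apart for Ezh2 alone; for Suz12, Mtf2 and Phf1 the circle of Ash1l het replicate 1 is the lowest of all 6 points.

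The Ezh1 to Ezh2 ratio was taken within each library, where library scaling cancels. By FPKM it was 8.84, 7.12 and 4.55 in Ash1l het and 7.42, 5.87 and 11.7 in WT, so the lowest library was in Ash1l het, the highest was in WT and the groups overlapped. It averaged 6.84 ± 2.16 in Ash1l het and 8.32 ± 3.01 in WT (SD, n = 3 each). The difference of the log2 ratios was -0.28, with p = 0.5 by an exact permutation test, two-sided, whose minimum is 0.1. Libraries of the same group differed beyond counting error: the exact 95% intervals, which cover counting error alone, were 7.32 to 10.8 for Ash1l het replicate 1 and 3.86 to 5.40 for Ash1l het replicate 3, and 4.87 to 7.12 for WT replicate 2 and 9.50 to 14.5 for WT replicate 3. The difference rested on single libraries. Without Ash1l het replicate 3 it was -0.0087, and without WT replicate 3 it was -0.0012.

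**Figure D4:**
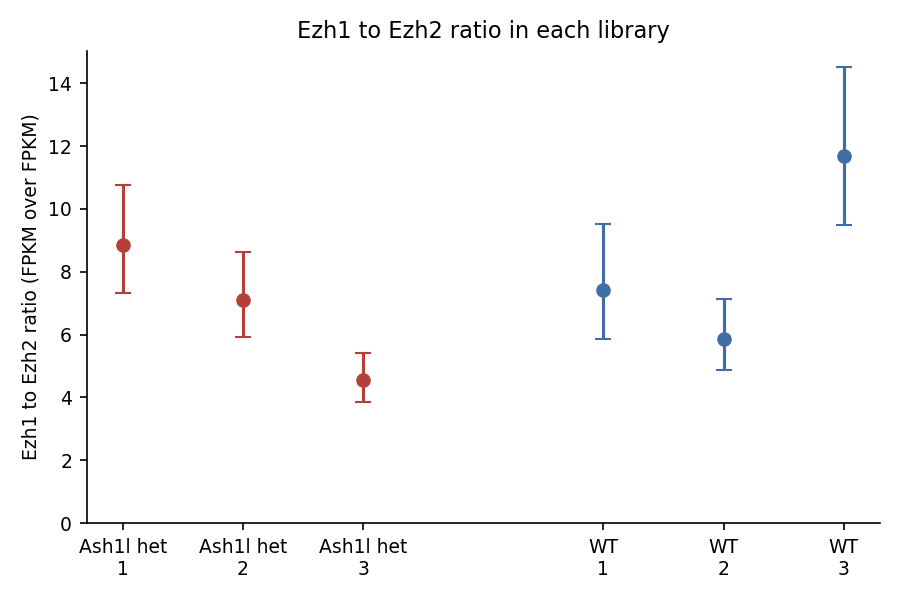
Ratio of Ezh1 to Ezh2 FPKM in each library (vertical axis from 0), Ash1l het in red and WT in blue, with exact 95% intervals for counting error. The 3 Ash1l het libraries run from 4.55 to 8.84 and the 3 WT libraries from 5.87 to 11.7.

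Ezh2 made up 10.2%, 12.3% and 18.0% of the summed Ezh1 and Ezh2 FPKM in Ash1l het, and 11.9%, 14.6% and 7.89% in WT. With principal transcript lengths the share was 12.1% to 21.2% in Ash1l het and 9.47% to 17.2% in WT, and the ratio 3.73 to 7.24 in Ash1l het and 4.80 to 9.56 in WT. The length moves the level of the ratio and leaves the difference between the groups as it is. The summed FPKM of both enzymes was 8.80, 7.89 and 5.45 in Ash1l het and 5.85, 5.54 and 7.82 in WT, which overlap.

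Eed, which reads the finished mark and stimulates the enzyme, stood at 10.3, 12.3 and 11.9 CPM in Ash1l het, against 8.44, 11.1 and 10.7 CPM in WT (ENSMUSG00000030619; chromosome 7). Ash1l het replicate 1 lay inside the WT range and the other two above it. Eed had a log2 fold change of 0.19 (SE 0.16). Suz12, the scaffold of the core (ENSMUSG00000017548; chromosome 11), stood at 25.4, 39.9 and 28.1 CPM in Ash1l het, against 37.5, 42.2 and 35.1 CPM in WT. Ash1l het replicates 1 and 3 were below each WT library and replicate 2 was within the WT range. Its log2 fold change was -0.30 (SE 0.17, 0.622-fold to 1.06-fold), and -0.52 without Ash1l het replicate 2. Rbbp4, the histone chaperone (ENSMUSG00000057236; chromosome 4), stood at 67.9, 87.3 and 65.1 CPM in Ash1l het, against 76.7, 68.9 and 69.2 CPM in WT. Its log2 fold change of 0.04 (SE 0.13) had the narrowest interval of the 10, from 0.839-fold to 1.25-fold, and its groups overlapped.

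Within the core, the ratio of Suz12 to Eed counts was 2.46, 3.24 and 2.37 in Ash1l het and 4.44, 3.82 and 3.30 in WT. Every Ash1l het library was below every WT library, although neither gene separated on its own. This ratio was chosen after its values were seen and was not tested. The chaperone ratio overlapped between the groups: Rbbp4 counts were 0.760, 0.954 and 0.705 times those of Rbbp7, its close relative, in Ash1l het and 0.830, 0.715 and 0.835 times in WT.

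The Polycomb-like genes Mtf2, Phf1 and Phf19 encode subunits that bring PRC2 to CpG-rich DNA in the form known as PRC2.1. Mtf2 (ENSMUSG00000029267; chromosome 5) stood at 28.7, 40.4 and 31.9 CPM in Ash1l het, against 42.4, 41.2 and 37.6 CPM in WT. As for Suz12, Ash1l het replicates 1 and 3 were below each WT library and replicate 2 was not. For Mtf2 the log2 fold change was -0.26 (SE 0.14). The Suz12 to Mtf2 count ratio overlapped, lying between 0.881 and 0.987 in Ash1l het and between 0.885 and 1.02 in WT.

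Phf1 (ENSMUSG00000024193; chromosome 17) stood at 20.5, 39.5 and 34.0 CPM in Ash1l het, against 34.8, 38.7 and 33.5 CPM in WT. Ash1l het replicate 1 was below each WT library and replicate 2 slightly above each, and the log2 fold change of -0.18 (SE 0.22) became 0.04 without replicate 1. Ash1l het replicate 1, the lowest library for Suz12, Mtf2 and Phf1, also had the lowest sum of spiny projection neuron markers, 7356 CPM, and among them Ppp1r1b, a regulator of dopamine signalling, was at 734, 1284 and 1369 CPM in Ash1l het, against 1246, 1466 and 1404 CPM in WT. The part of this in the 3 genes was not tested. Phf19 (ENSMUSG00000026873; chromosome 2) rested on 18, 11 and 20 counts in Ash1l het and 6, 4 and 16 counts in WT. That is 1.22, 0.717 and 1.10 CPM in Ash1l het, against 0.497, 0.239 and 0.926 CPM in WT, with Ash1l het replicate 2 inside the WT range. Its log2 fold change of 0.85 (SE 0.52) was the largest of the 10, but the interval ran from 0.802-fold to 4.04-fold, and the value was 1.49 without WT replicate 3 and 0.47 without WT replicate 2.

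Phf1 took 81.8% to 87.2% of the summed FPKM of the 3 Polycomb-like genes in Ash1l het and 84.5% to 86.4% in WT. With principal transcript lengths it took 52.4% to 62.3% in Ash1l het and 56.6% to 60.0% in WT, and Mtf2 took 36.3% to 45.5% in Ash1l het and 39.7% to 42.9% in WT. Phf19 stayed at or below 2.11% in Ash1l het and 1.09% in WT on the transcript scale. The lead of Phf1 over Mtf2 therefore depends in size on the length, while both scales keep the same order.

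Jarid2, a catalytically inactive relative of the Jumonji demethylases that defines the other form, PRC2.2, stood at 55.4, 38.0 and 44.0 CPM in Ash1l het, against 57.2, 53.7 and 49.6 CPM in WT (ENSMUSG00000038518; chromosome 13). Ash1l het replicates 2 and 3 were below each WT library, and replicate 1 was not. The log2 fold change was -0.22 (SE 0.14). The Jarid2 to Mtf2 count ratio, which sets a PRC2.2 gene against a PRC2.1 gene, was 1.93, 0.942 and 1.38 in Ash1l het and 1.35, 1.30 and 1.32 in WT. The WT libraries were close to each other and the Ash1l het libraries lay on both sides of them. Ash1l het replicate 2, with the lowest Jarid2 and the highest Rbbp4 and Eed of all 6 libraries, also had the highest Gfap, the astrocyte filament gene, at 733 CPM, where the others ran from 104 to 412 CPM in Ash1l het, against 62.1 to 154 CPM in WT. All 8 astrocyte markers, 3 higher and 5 lower by sign, none passing and none at 0, summed to 3127 to 4849 CPM in Ash1l het, against 3529 to 4521 CPM in WT, and the highest sum was that of Ash1l het replicate 1. Ash1l het replicate 2 also stood highest for microglia, at 548 CPM, where the others were at 377 and 378 CPM in Ash1l het, against 370 to 413 CPM in WT (5 of 8 markers higher and 3 lower by sign). Its oligodendrocyte sum of 8164 CPM was the highest as well, where the others were at 7114 and 5608 CPM in Ash1l het, against 5479 to 6870 CPM in WT (6 of 8 higher and 2 lower by sign). In neither list did a marker pass or stand at 0. The part of these markers in its PRC2 values was not tested.

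Kdm2b (ENSMUSG00000029475; chromosome 5) stood at 18.4, 13.8 and 15.9 CPM in Ash1l het, against 15.6, 17.6 and 16.4 CPM in WT, which overlap. The log2 fold change was -0.05 (SE 0.15), from 0.771-fold to 1.21-fold.

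Exons of 3 of the 10 genes overlap those of a well-expressed gene on the other strand in GENCODE M21: Mtf2 with Tmed5, Phf1 with Cuta and Kdm2b with Rnf34. The sources used here do not say whether reads were counted by strand, so reads of these pairs may be mixed. Tmed5, a trafficking protein gene, stood at 37.1, 48.0 and 37.8 CPM in Ash1l het, against 34.8, 32.5 and 32.4 CPM in WT, opposite in direction to Mtf2. Cuta was at 6.19, 11.0 and 8.63 CPM in Ash1l het, against 12.7, 10.6 and 9.96 CPM in WT, lowest in Ash1l het replicate 1 as Phf1 was. Rnf34 was at 60.2 to 65.7 CPM in Ash1l het, against 56.2 to 63.6 CPM in WT.

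The genes whose pattern over the 6 libraries was most like that of Ezh1 by Pearson r of log2 CPM were Ubxn4 (r = 0.994), Zmym6 (r = 0.993) and Rec8 (r = 0.989). For Ezh2 they were Gm7173 (r = 0.984), Tagln2 (r = 0.982) and Ghr (r = 0.979). With 6 libraries many genes come this close: 116 genes had an r over 0.9 with Ezh1 and 87 with Ezh2. These values are a description, since all genes share the same 6 libraries.

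The other genes of the Polycomb system were read from 4 lists. No gene of any list passed the quasi-likelihood test of edgeR over all genes in either direction (background 0.0131%), and DESeq2 called 0. An unadjusted p under 0.05 was found by edgeR for 4 of the 52 tested genes of the 4 lists, where 5.78% of all tested genes had one, and by DESeq2 for 5 of the 87 list genes given a p, where 3.75% of all genes did.

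Of 6 other PRC2 subunits, 5 were tested, 4 higher and 1 lower by sign, with a median log2 fold change of 0.09. Lcor, a gene with a PRC2.1 cofactor among its products, stood at 22.0 ± 2.55 CPM in Ash1l het, against 18.8 ± 2.50 CPM in WT (SD, n = 3 each). Counts by gene do not tell its transcripts apart, nor those of Lcorl, also in this list. Aebp2, which pairs with Jarid2 in PRC2.2, stood at 54.7 ± 3.17 CPM in Ash1l het, against 51.4 ± 4.70 CPM in WT, a log2 fold change of 0.09 (SE 0.11). Epop, listed under its older symbol E130012A19Rik, was at 2.58, 8.60 and 8.36 CPM in Ash1l het, against 8.03, 10.8 and 9.44 CPM in WT. Ash1l het replicate 1 was its lowest library, as it was for Phf1, Suz12 and Mtf2.

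Of 23 PRC1 subunits, which read or extend the Polycomb mark and place ubiquitin on histone H2A, all were tested, 7 higher and 16 lower by sign, with a median log2 fold change of -0.07. The groups did not overlap for 6 genes that were lower (Cbx6, Phc1, Scmh1, Bcor, Bcorl1 and L3mbtl2; background 5.53%) and for 2 that were higher (Rnf2 and Pcgf6; background 6.18%). Bcor, a corepressor in the same PRC1 variant as Kdm2b, stood at 33.9, 32.1 and 35.9 CPM in Ash1l het, against 55.5, 55.9 and 41.3 CPM in WT. Its log2 fold change was -0.58 (SE 0.14), with an edgeR p of 0.00205 unadjusted and 0.690 adjusted, and between -0.71 and -0.51 with single libraries left out. Its relative Bcorl1 had -0.30 (SE 0.14), and L3mbtl2, of another PRC1 variant, -0.34 (SE 0.13). The 23 genes summed to 1117, 1112 and 1325 CPM in Ash1l het, against 1334, 1365 and 1333 CPM in WT. Each Ash1l het sum was below each WT sum, and Cbx6, a chromodomain subunit at 172, 276 and 289 CPM in Ash1l het, against 313, 332 and 309 CPM in WT, made up 22.3% of the total. Without Cbx6 the sums overlapped, at 946, 836 and 1036 CPM in Ash1l het, against 1021, 1033 and 1024 CPM in WT, and with each gene left out in turn they overlapped for 4 of the 23 genes (Cbx6, Scmh1, Bcor and Bcorl1).

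The next list held 7 genes, for enzymes that remove Polycomb marks and for the cofactors Asxl1, Asxl2 and Asxl3, which are not enzymes. Of the 7, 3 were higher and 4 lower by sign. Kdm6b, a demethylase of lysine 27, stood at 30.2, 43.4 and 36.9 CPM in Ash1l het, against 50.1, 45.4 and 44.5 CPM in WT, without overlap (background 5.53%; edgeR log2 fold change -0.34, SE 0.14, adjusted p = 0.857). Kdm6a, its X-linked relative, was at 79.1, 65.9 and 70.2 CPM in Ash1l het, against 66.6, 71.6 and 58.5 CPM in WT. Usp16, which removes ubiquitin from histone H2A, stood at 28.3 to 30.3 CPM in Ash1l het, against 24.2 to 26.2 CPM in WT, also without overlap (background 6.18%), a log2 fold change of 0.20 (SE 0.11), and Bap1, with the same activity, had -0.16 (SE 0.11).

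The last list held 70 developmental regulators that Polycomb is known to silence. Most had few or no counts: 19 had 0 counts in all 6 libraries, 21 had 1 to 10 counts in all, and 17 passed the expression filter. Of the 17, 5 were higher and 12 lower by sign, with a median log2 fold change of -0.10. No gene of the 70 with 0 counts in WT reached 10 counts in Ash1l het. Nkx2-2, a factor of oligodendrocyte precursors in the adult brain, stood at 2.99, 5.21 and 4.40 CPM in Ash1l het, against 7.45, 8.37 and 5.27 CPM in WT (edgeR log2 fold change -0.74, SE 0.26, adjusted p = 0.857). Beside it, markers of oligodendrocyte precursors summed to 116 to 129 CPM in Ash1l het, against 127 to 138 CPM in WT, 3 of 5 lower by sign and none at 0, and their part in it was not tested. The log2 fold change of Msx1 was -1.10 (SE 0.54) and that of Gata2 0.43 (SE 0.22). Msx1 and Gata2 overlapped between the groups, and Nkx2-2 did not.

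**Figure D5:**
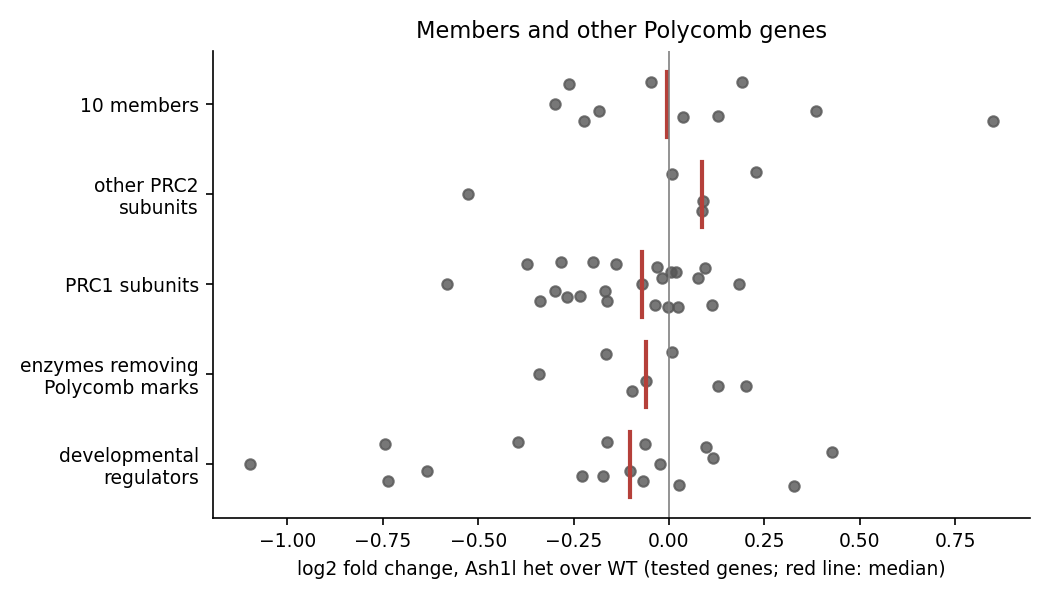
Log2 fold change, Ash1l het over WT, of the tested genes in each list (points) with the median of the list (red line). The 10 members spread from -0.30 at Suz12 to 0.85 at Phf19, and the medians of the 5 lists lie between -0.10 and 0.09.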

How the data were processed

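For 6 libraries the authors deposited raw counts of reads by gene, with FPKM values beside them, per the file headers; the deposited per-sample files hold the same counts for all 34745 genes. Per the submitters' processing notes, the tools included HISAT2, StringTie and edgeR and the build was GRCm38; the sources used here give no roles, versions, annotation or strand setting. The library kit was a stranded one for mRNA, per the labels' protocols. FPKM equals the count scaled by library total and a fixed length per gene (whole within 0.1 base for 99.1% of genes averaging 10 counts or more), which equalled the GENCODE M21 merged exons for 11.4%.

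Counts were fitted over all genes in edgeR 4.0.16 under R 4.3.3 (quasi-likelihood test, robust, TMM scaling, default filter with a minimum count of 10, genotype as the single term) and adjusted by Benjamini-Hochberg over 15267 genes, threshold 0.05. CPM values are on the TMM scale. Alternatives used DESeq2 1.42.0, limma 3.58.1 (voom, and log2(FPKM + 0.1) or log2(FPKM + 1) where FPKM averaged 0.5 or more), other scalings and filters, a replicate block and each library left out; a length taken from principal transcripts, and list sums with each gene left out, were added after seeing the data. The ratio was tested with SciPy 1.17.1. The fit was tested on simulated data, with 50 genes changed at each size. It called 18% of genes changed 1.5-fold, 64% at 2-fold, 84% at 3-fold and 92% at 4-fold. Of 142 calls, 13 fell on unchanged genes, a share above the threshold of 0.05. Changes of 1.5-fold were thus mostly missed in the simulation. With 200 genes changed, it gave many more calls than the data, where 2 genes passed. The adjusted threshold was therefore easier to pass in the simulation, and its shares may be too high for the data. Named genes were the 10 members, Ash1l, up to 3 genes of each other list by smallest p and the 3 genes most like Ezh1 and Ezh2 by r; genes whose groups did not overlap, the genes overlapping a member, Rbbp7, Kdm6a and single markers were named after their values were seen. The members and lists were chosen with earlier results of these data known.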

Additional observations from a re-analysis of the deposited data

How the results depend on the processing

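The 10 members gave 0 calls under all 15 alternatives run, and the 4 other Polycomb lists likewise gave 0. Under the 9 alternatives that kept all 6 libraries, 0 of 87 member fold changes changed sign; Phf19 was not tested under the FPKM scales and the filter of 1 CPM in 3 libraries. With single libraries left out 4 of 60 changed sign, none called: Ezh1 (-0.057, range -0.057 to 0.32) and Phf1 (0.043, range -0.38 to 0.043) without Ash1l het replicate 1, and Rbbp4 (-0.11, range -0.11 to 0.12) and Kdm2b (0.045, range -0.16 to 0.045) without Ash1l het replicate 2. Over all genes 2 passed edgeR, 35 passed DESeq2, and between 1 (no WT replicate 3) and 13 (no Ash1l het replicate 3) passed with a library left out; the cause was not tested. The log2 difference of the Ezh1 to Ezh2 ratio ran from -0.50 to -0.0012 with a library left out, and was -0.23 on log2(FPKM + 0.1) and -0.055 on log2(FPKM + 1). No label says that the numbers 1 to 3 pair the libraries. The correlations of same-numbered deviations were 0.056, -0.075 and 0.011, and 1 of 3 Ash1l het libraries correlated best with its own number. With 3 libraries per group, these correlations cannot settle whether the libraries were paired. With a replicate block 3 genes and 0 members passed, and the ratio difference was -0.28 (exact sign-flip p = 1.0, smallest possible 0.25). Depth is lowest for Phf19, with 4 to 20 counts a library.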
